A study of Mus musculus with 18 samples.

Results

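The 35 genes described here belong to the unfolded protein response of the endoplasmic reticulum (ER) and to the integrated stress response, and were taken by symbol from the deposited table of 26143 genes. All 35 were found in the table, and all 35 passed the filter on low values, which asked for 0.635 CPM (the reads of a gene scaled by library size) or more in at least 3 libraries and left 15235 genes to test. The series holds 18 RNA-seq libraries of mouse upper digestive tract in 4 groups. The WT group (3 libraries) is wild type esophagus. The p53 group (3 libraries) is tongue that is heterozygous for an LSL-p53 allele encoding R172H, where LSL is a Loxp-STOP-Loxp cassette, a transcription stop that Cre recombinase cuts out. The E20 group (6 libraries) is tongue with an LSL allele of PIK3CA, the catalytic subunit of a lipid kinase, encoding H1047R. The E20/p53 group (6 libraries) is tongue with both LSL alleles and K14-Cre, a Cre driven by the keratin 14 promoter of basal keratinocytes. K14-Cre is written in the labels of the E20/p53 group alone, and whether the p53 and E20 tissues carried a Cre is not stated. The series title speaks of tumors started with the carcinogen 4NQO. The labels do not say which libraries came from treated or tumor tissue, nor the age or sex of the mice. Whether libraries within a group are from separate animals is not said, so each p-value measures only the spread between libraries, which may be technical. The WT group is another organ than the other 3 groups, so in every comparison with WT the genotype and the tissue cannot be told apart.

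The ER folds proteins that are destined for membranes and for secretion. Unfolded proteins there are sensed by IRE1α (Ern1), PERK (Eif2ak3) and ATF6, which are held inactive by the chaperone BiP (Hspa5). IRE1α splices the Xbp1 mRNA, ATF6 is cut to a transcription factor, and both routes raise chaperones, oxidoreductases and the machinery that degrades misfolded proteins. PERK phosphorylates the translation factor eIF2α, as do kinases that sense amino acid lack, heme lack and viral RNA. Their common output, the integrated stress response, slows protein synthesis and favours translation of ATF4, which induces CHOP (Ddit3), Trib3, Chac1 and enzymes that make amino acids. Cells with a heavy secretory load, such as plasma cells and fibroblasts that make collagen, run these routes at a high baseline. The libraries measure mRNA only, and neither Xbp1 splicing nor eIF2α phosphorylation can be read from a value per gene.

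Both responses are known to act on genes through short promoter elements, ATF6 and XBP1 through one kind and ATF4 through another, and the windows below show which of the genes hold which letters. RefSeq promoters on the build GRCm38.p6 (mm10), each reaching from 250 bases before to 50 bases after an annotated start, were given for 31 of the 35 genes. The ER stress response element (ERSE) was searched on both strands as CCAAT, any 9 bases and CCACG, and its CCAAT part overlaps by construction with the plain CCAAT box. It was held by 39 of all 32851 promoters (0.119%) and by promoters of 9 of the 31 genes (29.0%). In the sequences below, capitals mark the fixed letters of a match, each sequence reads 5′ to 3′ on the strand of the gene, and a match on the opposite strand reads CGTGG, 9 bases and ATTGG.
Hspa5 (chr2:34772020-34772048, plus strand): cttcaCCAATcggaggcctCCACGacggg
Hsp90b1, first match (chr10:86705633-86705661, minus strand): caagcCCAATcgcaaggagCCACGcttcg
Hsp90b1, second match (chr10:86705528-86705556, minus strand): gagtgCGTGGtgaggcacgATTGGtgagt
Calr (chr8:84847070-84847098, minus strand): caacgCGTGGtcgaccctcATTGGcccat
Canx (chr11:50325795-50325823, minus strand): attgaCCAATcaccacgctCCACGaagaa
Pdia6 (chr12:17266486-17266514, plus strand): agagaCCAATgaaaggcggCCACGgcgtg
Dnajc3 (chr14:118937822-118937850, plus strand): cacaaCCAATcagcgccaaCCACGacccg
Creld2 (chr15:88819515-88819543, plus strand): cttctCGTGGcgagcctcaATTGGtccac
Syvn1 (chr19:6046527-6046555, plus strand): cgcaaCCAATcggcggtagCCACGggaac
The ninth gene with an ERSE was Derl3, which was barely detected in these tissues. The related ERSE-II, searched as ATTGG, any base and CCACG, was held by 12 of the 32851 promoters (0.0365%) and by 2 of the 31 genes.
Herpud1 (chr8:94386372-94386392, plus strand): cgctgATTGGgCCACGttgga
Dnajb11 (chr16:22857847-22857867, plus strand): cggcgATTGGcCCACGcctgg
The element bound by ATF4 dimers, searched as TGATG, any base and AA, was held by 1304 promoters (3.97%) and by 4 of the 31 genes, where the opposite strand reads TT, a base and CATCA.
Chac1 (chr2:119351044-119351061, plus strand): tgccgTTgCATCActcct
Trib3 (chr2:152344034-152344051, minus strand): caggtTTaCATCAgccgg
Asns (chr6:7693220-7693237, minus strand): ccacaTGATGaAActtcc
Herpud1 (chr8:94386312-94386329, plus strand): gcgggTTgCATCAgcccg
The plain CCAAT box was common, in 37.4% of all promoters and in those of 25 of the 31 genes. A match shows letters in a window and not a bound site, and the series holds no binding data.

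Libraries held from about 14592000 to about 18176000 reads in the table. Of the genes named below, cell type markers aside, Derl3 and Atf3 rested on the fewest reads. The libraries of the E20 group and of the E20/p53 group each fell into blocks of 3 by their numbers, 1 to 3 and 4 to 6. Across all tested genes the correlation between libraries was 0.991 to 0.994 inside a block of 3, 0.859 to 0.944 between the blocks of 1 group and 0.809 to 0.948 between groups. The labels give no difference between the blocks, and 6 libraries in blocks of 3 may stand for fewer sources than 6. Every library is labelled squamous epithelium, and the label was checked against markers. The summed level of 12 squamous epithelium markers was 1053 to 1056 CPM in E20/p53 1 to 3, 249.6 to 266 CPM in WT and 153 to 175 CPM in E20 1 to 3. It was 6.37 to 8.03 CPM in p53, 5.62 to 6.54 CPM in E20 4 to 6 and 10.5 to 12.6 CPM in E20/p53 4 to 6, with Krt5, Krt15, Krt4, Krt6a and Epcam at 0 reads in the last block. Also at 0 reads were Krt4, Krt13, Krt6a, Cdh1 and Epcam in E20 4 to 6 and Krt15 and Dsg3 in p53. So were Krt4 and Dsg3 in WT and Krt4 in E20 1 to 3. The summed level of 17 genes for collagens and collagen enzymes was 1981 to 2030.0 CPM in E20/p53 1 to 3 and 2563 to 2687 CPM in WT, against 13589 to 14546 CPM in p53, 23283 to 25705 CPM and 25455 to 27270.5 CPM in the E20 blocks and 27821 to 29951 CPM in E20/p53 4 to 6. The 10 skeletal muscle markers summed to 4.94 to 5.32 CPM in E20/p53 1 to 3, 10.9 to 12.6 CPM in WT, 2112 to 2264 CPM in p53 and 664 to 747 CPM in the other 3 blocks. A block mean of 1 CPM or more was reached by 10 of them in p53 and 9 in E20/p53 4 to 6. It was reached by 4 in E20 1 to 3, 5 in E20 4 to 6, 4 in WT and 2 in E20/p53 1 to 3. Like sums in the E20 blocks and E20/p53 4 to 6 thus came from unlike sets of markers. The marker sums therefore differed between groups and inside them. The 8 leukocyte markers summed to 13.3 to 42.5 CPM over all libraries, with Adgre1 and Cd3e at 0 reads in every block. The 7 endothelium markers summed to 1.69 to 5.80 CPM. What the samples were made of beyond their tissue labels was not tested. In bulk RNA fewer cells of a type and less RNA per cell cannot be told apart.

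**Figure D1:**
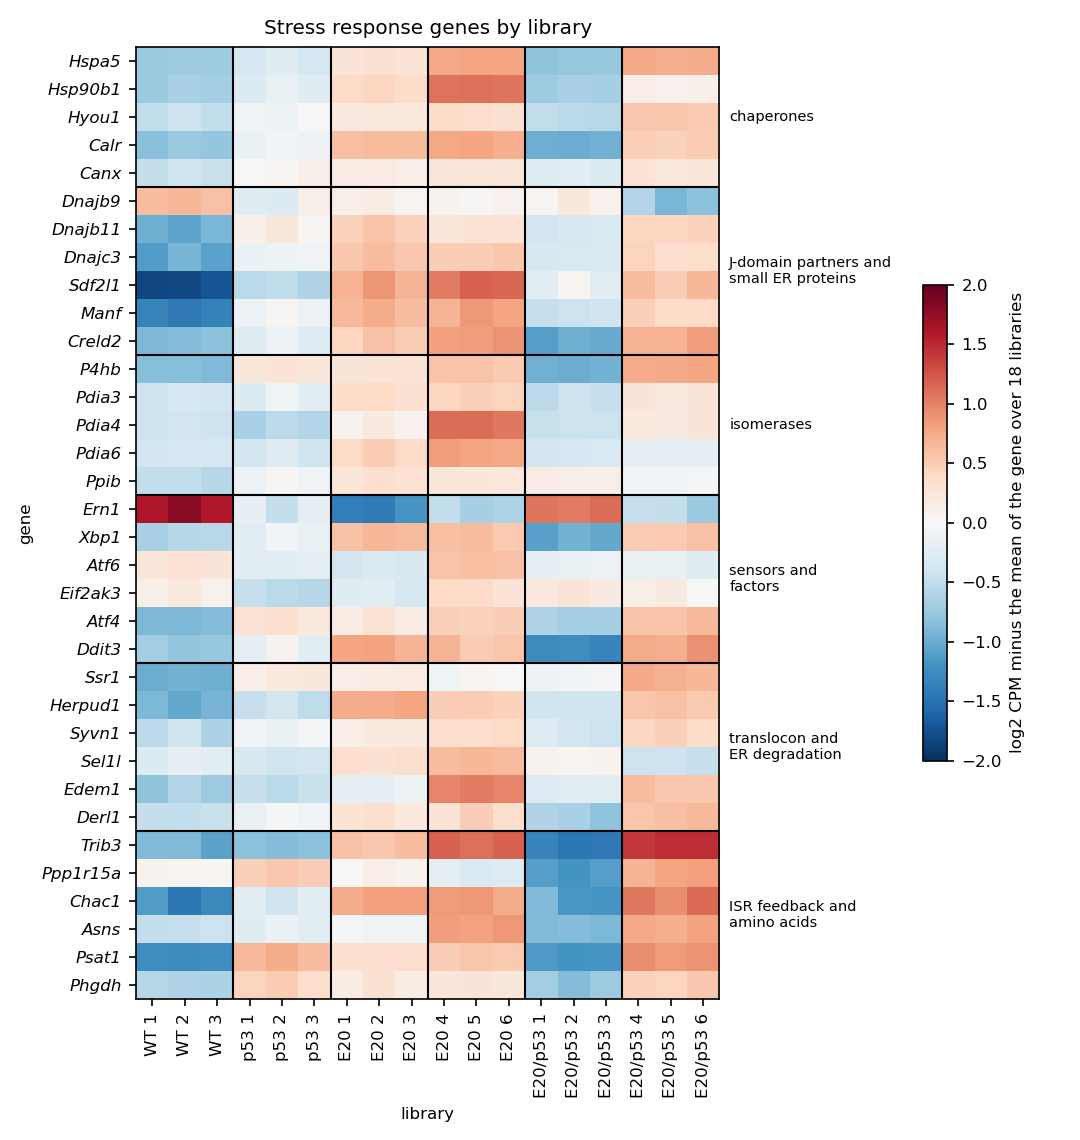
Levels of 34 of the 35 genes (Derl3 is left out for its low counts) in 18 libraries, as log2 CPM minus the mean of the gene over the libraries. Rows are grouped by role and vertical lines separate the blocks of 3. Most rows are blue in WT and in E20/p53 1 to 3 and red in the E20 blocks and in E20/p53 4 to 6, with Ern1 and Dnajb9 running differently.

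Among the ER chaperones, the 5 genes had the same 2 low blocks, WT and E20/p53 1 to 3. Hspa5, which encodes BiP, the HSP70 of the ER and the sensors' restraint (chr2:34771970-34777547), stood at 814, 839 and 832 CPM in WT and at 1088, 1156 and 1072 CPM in p53. In E20 its levels were 1635, 1684 and 1648 CPM in libraries 1 to 3 and 2346, 2367 and 2359.8 CPM in libraries 4 to 6. In E20/p53 they were 779.9, 805 and 810.2 CPM in libraries 1 to 3 and 2313, 2262 and 2274 CPM in libraries 4 to 6. The E20/p53 group thus held the lowest and nearly the highest levels of BiP mRNA in the series, with a wide gap between its blocks. Hsp90b1, the HSP90 of the ER (GRP94), had block means of 979.6 ± 27.6 CPM in WT, 1358 ± 60.3 in p53, 2080.1 ± 37.4 and 3359.6 ± 23.4 in E20, and 993 ± 23.4 and 1706 ± 24.8 in E20/p53 (SD, n = 3 each). Calr, a lectin chaperone that binds calcium, ran from 470.0 ± 5.35 CPM in E20/p53 1 to 3 to 1569 ± 38.2 CPM in E20 4 to 6, with 1293 ± 17.6 CPM in E20/p53 4 to 6. For both genes every E20/p53 library was below every E20 library. Hyou1, the large HSP70 that serves BiP as a nucleotide exchange factor, was highest in E20/p53 4 to 6 at 293.7 ± 3.11 CPM and Canx, the membrane-bound partner of calreticulin, varied least of the 5, from 577 to 929 CPM. Per kilobase of exon, the scale on which genes can be set side by side, the most abundant of the 35 were Hsp90b1 at 433 CPM per kilobase, Pdia3 at 386, Calr at 357 and Hspa5 at 356, as means over the 6 blocks.

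The partners of BiP and the small ER proteins divided into a pair of patterns. Sdf2l1, a subunit of the complex of BiP with the J-domain protein ERdj3, was at 5.90, 5.92 and 6.25 CPM in WT and at 14.3, 14.7 and 13.7 CPM in p53. It reached 33.8, 38.3 and 33.4 CPM in E20 1 to 3 and 42.2, 47.1 and 46.1 CPM in E20 4 to 6, and in E20/p53 it was 18.01, 21.5 and 17.7 CPM and then 31.9, 29.2 and 32.8 CPM. WT was lowest, E20 highest, and no library of E20/p53 overlapped with either. Manf, a secreted ER stress protein, was likewise lowest in WT and highest in E20, with 58.0 CPM in WT, 143 in p53, 239 and 258 in E20 and 112 and 200.2 in E20/p53. Dnajc3 (p58IPK), a J-domain protein that also inhibits eIF2α kinases, ran from 69.9 CPM in WT to 212 CPM in E20 1 to 3. Dnajb11, which encodes ERdj3, ranged from 75.0 to 209 CPM and Creld2, an ER stress protein with disulfide-handling domains, from 34.1 to 126 CPM. Dnajb9, which encodes ERdj4, a J-domain protein that dampens IRE1α and a known target of spliced XBP1, ran the other way. Its levels were 47.0, 49.0 and 46.2 CPM in WT, 26.0, 25.5 and 33.4 CPM in p53, 33.4, 34.2 and 32.1 CPM in E20 1 to 3, 32.2, 31.2 and 32.6 CPM in E20 4 to 6, 32.1, 36.0 and 32.6 CPM in E20/p53 1 to 3 and 20.43, 16.3 and 17.4 CPM in E20/p53 4 to 6. WT was above all other libraries, and E20/p53 4 to 6 below all other libraries.

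Of the isomerases, which form and rearrange disulfide bonds or proline bonds, Pdia6 set E20 apart from all other groups. It stood at 364, 376 and 372 CPM in WT and 368, 397 and 362 CPM in p53, at 627, 678 and 621 CPM in E20 1 to 3, 855, 824 and 811 CPM in E20 4 to 6, at 372, 379 and 385 CPM in E20/p53 1 to 3, and at 419, 415 and 423 CPM in E20/p53 4 to 6. No library outside E20 exceeded the highest E20/p53 value of 423 CPM, and no E20 library was below 621 CPM. Pdia4 was at 745 CPM in E20 4 to 6 against 377 CPM in E20 1 to 3, and between 232 and 403 CPM in the other blocks. Pdia3 (ERp57), the oxidoreductase that works with the lectin chaperones, ranged from 852 to 1599 CPM. P4hb, which encodes protein disulfide isomerase and is also a subunit of the collagen prolyl hydroxylase, was lowest at 416 CPM in E20/p53 1 to 3 and highest at 1380.3 CPM in E20/p53 4 to 6. Ppib, cyclophilin B, ranged from 109 CPM in WT to 189.6 CPM in E20 1 to 3. In the GENCODE M21 annotation 825 of the 3305 exon bases of Ppib overlap with Snx22 on the other strand, as do 10.3% of those of Hsp90b1 with the pseudogene 1810014B01Rik and 8.0% of those of Eif2ak3 with Gm43292. The library kit keeps the strand, but the strand setting of the counting is not given in the sources used here, so those values are uncertain.

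The sensors did not follow the chaperones. Ern1 (IRE1α, chr11:106394650-106487852) was at 122, 139 and 120.5 CPM in WT and 83.7, 82.1 and 86.7 CPM in E20/p53 1 to 3, the blocks in which the chaperones were low. It was at 35.7, 28.6 and 34.7 CPM in p53, 15.3, 14.9 and 17.6 CPM in E20 1 to 3, 28.4, 25.2 and 26.0 CPM in E20 4 to 6, and 29.1, 28.7 and 23.8 CPM in E20/p53 4 to 6. Both high blocks were above every other library, and the mean of E20/p53 1 to 3 was 2.55 times that of p53. Xbp1, its substrate and the transcription factor of that branch (chr11:5520659-5525893), showed the reverse, with 80.8, 85.1 and 86.0 CPM in WT, 109, 122 and 114 CPM in p53, 189.8, 200.2 and 197 CPM in E20 1 to 3, 191, 195 and 181 CPM in E20 4 to 6, 59.5, 65.8 and 62.5 CPM in E20/p53 1 to 3 and 179, 182 and 190.1 CPM in E20/p53 4 to 6. The E20/p53 blocks did not overlap, and the upper one overlapped with E20. Atf6 was highest in E20 4 to 6 at 164 CPM and lowest in E20 1 to 3 at 86.6 CPM, and Eif2ak3 (PERK) ran from 28.3 CPM in p53 to 51.8 CPM in E20 4 to 6. For both, the blocks of E20 were apart while those of E20/p53 overlapped. Atf4, the effector of the integrated stress response, stood at 159 ± 1.85 CPM in WT, 356 ± 13.0 in p53, 338 ± 18.7 and 412 ± 3.54 in E20, and 188 ± 5.19 and 446 ± 13.3 in E20/p53. Ddit3 (CHOP), a transcription factor that can promote cell death, was at 27.5, 28.1 and 26.7 CPM in E20/p53 1 to 3, below every other library, and at 111, 109.7 and 125 CPM in E20/p53 4 to 6. Its other levels were 41.2, 38.8 and 39.5 CPM in WT, 58.3, 69.5 and 57.5 CPM in p53, 116, 117 and 107 CPM in E20 1 to 3 and 106, 94.7 and 98.1 CPM in E20 4 to 6. The annotation holds 2 gene entries with this symbol that share exon bases on the same strand, so the split of Ddit3 reads is uncertain.

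Genes of the translocon and of ER-associated degradation were mixed. Ssr1, a subunit of the complex beside the translocon, was lowest in WT at 118 CPM and highest in E20/p53 4 to 6 at 378 CPM. Herpud1, a membrane organizer of the ubiquitin ligase complex, was lowest in WT at 48.3 CPM and highest in E20 1 to 3 at 157 CPM. Syvn1, the ligase itself (HRD1), ranged from 44.8 to 85.7 CPM. Its adaptor Sel1l had its lowest block where Syvn1 had its highest, with 118, 119 and 116 CPM in E20/p53 4 to 6 against 167, 163 and 167 CPM in E20/p53 1 to 3 and 243, 252 and 247 CPM in E20 4 to 6. Edem1, which passes misfolded glycoproteins on for degradation, was at 115 CPM in E20 1 to 3 and 255 CPM in E20 4 to 6, the largest ratio between the E20 blocks among the 34 genes other than Derl3. Derl1, a channel component, ranged from 24.5 to 59.5 CPM. Derl3, its stress-induced relative, stayed at or below 1.14 CPM in all 18 libraries, and its calls below rest on few reads.

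**Figure D2:**
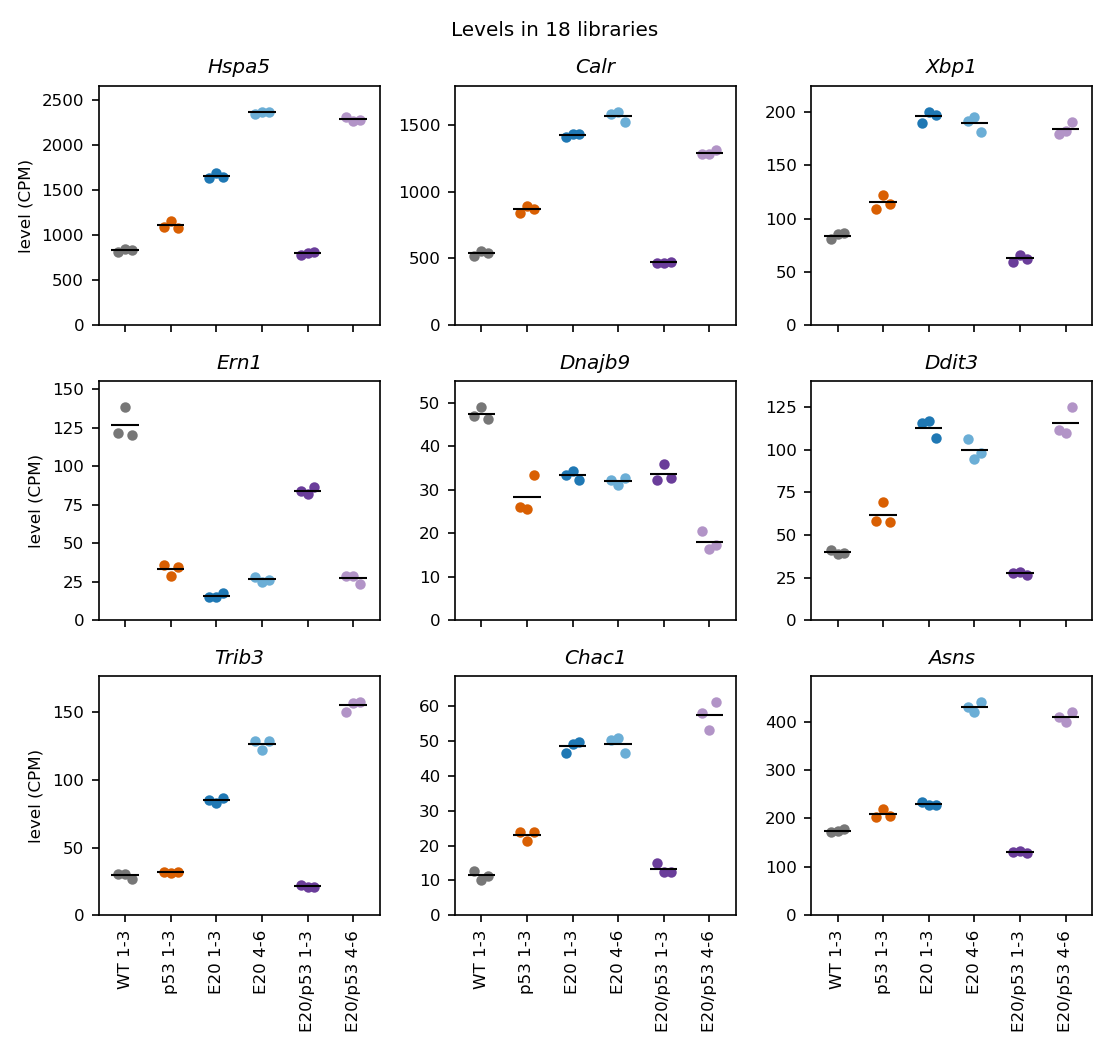
Levels of 9 genes in CPM on linear axes from 0, with 1 point per library and a line at the mean of each block of 3. Ern1 and Dnajb9 are highest in WT, and the other 7 genes sit lower in E20/p53 1 to 3 than in E20/p53 4 to 6 with no overlap.

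The feedback and amino acid genes of the integrated stress response split the E20/p53 group most widely. Trib3, a pseudokinase that restrains ATF4 signalling, was at 30.8, 30.6 and 26.9 CPM in WT, 32.2, 31.0 and 32.0 CPM in p53, 85.2, 82.6 and 86.6 CPM in E20 1 to 3, 128, 122 and 128 CPM in E20 4 to 6, 22.5, 20.8 and 21.0 CPM in E20/p53 1 to 3 and 150.3, 157 and 158 CPM in E20/p53 4 to 6. Chac1, which degrades glutathione, was at 12.9, 10.2 and 11.4 CPM in WT, 23.8, 21.2 and 23.9 CPM in p53, 46.6, 49.0 and 49.5 CPM in E20 1 to 3, 50.2, 50.7 and 46.5 CPM in E20 4 to 6, 15.1, 12.4 and 12.4 CPM in E20/p53 1 to 3 and 57.9, 53.07 and 61.1 CPM in E20/p53 4 to 6. In each case E20/p53 held both the lowest or next to lowest block and the highest block. Ppp1r15a (GADD34), which returns eIF2α to its active state, was at 23.0 ± 0.884 CPM and 85.7 ± 4.44 CPM in the E20/p53 blocks and between 42.6 and 71.8 CPM elsewhere. Asns, asparagine synthetase, was at 131, 132 and 129 CPM and 409, 398 and 419.6 CPM in the E20/p53 blocks, 230.1 and 429 CPM in the E20 blocks, 209 CPM in p53 and 175 CPM in WT. Psat1 and Phgdh, enzymes of serine synthesis, were at 166 and 88.4 CPM in E20/p53 1 to 3 and at 695 and 209 CPM in E20/p53 4 to 6. All 6 genes of this group were below every E20 library in E20/p53 1 to 3, where 28.6% of all tested genes were. By contrast, 5 of the 6 were above every E20 library in E20/p53 4 to 6, where 26.7% of all tested genes were, Asns being the exception.

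Set against each other without a test, the blocks of the E20/p53 group differed in one direction for most of the 35 genes. In libraries 4 to 6, 28 genes were above libraries 1 to 3 with no overlap, against 41.4% of all tested genes, and 4 were below, against 38.9%. The 4 were Dnajb9, Ppib, Ern1 and Sel1l, and the 3 that overlapped were Atf6, Eif2ak3 and Derl3. The median ratio of libraries 4 to 6 over 1 to 3 was 1.79 over the 35 genes and 1.01 over all tested genes. By role it was 3.95 for the feedback and amino acid genes, with 7.23 for Trib3, 4.32 for Chac1, 4.19 for Psat1 and 3.72 for Ppp1r15a. It was 2.10 for the chaperones, 1.73 for the translocon and degradation genes, 1.68 for the partners of BiP, 1.67 for the sensors and factors and 1.56 for the isomerases. The E20 blocks were closer, with 21 genes above and 8 below in libraries 4 to 6 against 33.1% and 34.8% of all tested genes, and a median ratio of 1.10. Over all 6 blocks, WT held the lowest mean for 15 of the 35 genes and E20/p53 1 to 3 for 13, where these blocks were lowest for 27.0% and 18.7% of all tested genes. E20 4 to 6 held the highest mean for 15 and E20/p53 4 to 6 for 12, against 15.1% and 17.2% of all tested genes. The summed collagen genes moved with these levels between the E20/p53 blocks, from 1981 to 2030.0 to 27821 to 29951 CPM, while the squamous markers moved the other way. Their part in the result was not tested.

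**Figure D3:**
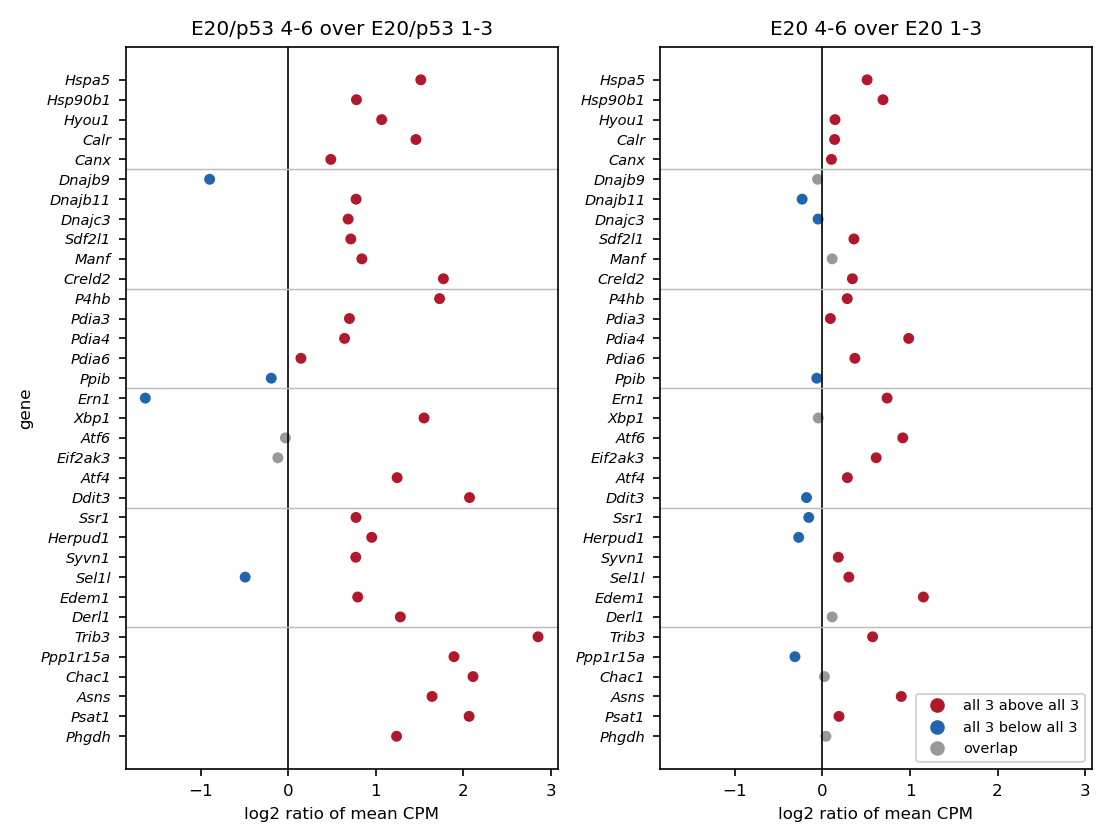
Ratio of mean CPM of libraries 4 to 6 over libraries 1 to 3, on a log2 axis, for 34 genes in E20/p53 (left) and E20 (right), with no test. Red points mark genes whose 3 libraries were all above the other 3, blue points all below, grey points overlap. The E20/p53 ratios reach 7.23 for Trib3 and fall to 0.323 for Ern1, and the E20 ratios stay between 0.805 for Ppp1r15a and 2.22 for Edem1.

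**Figure D4:**
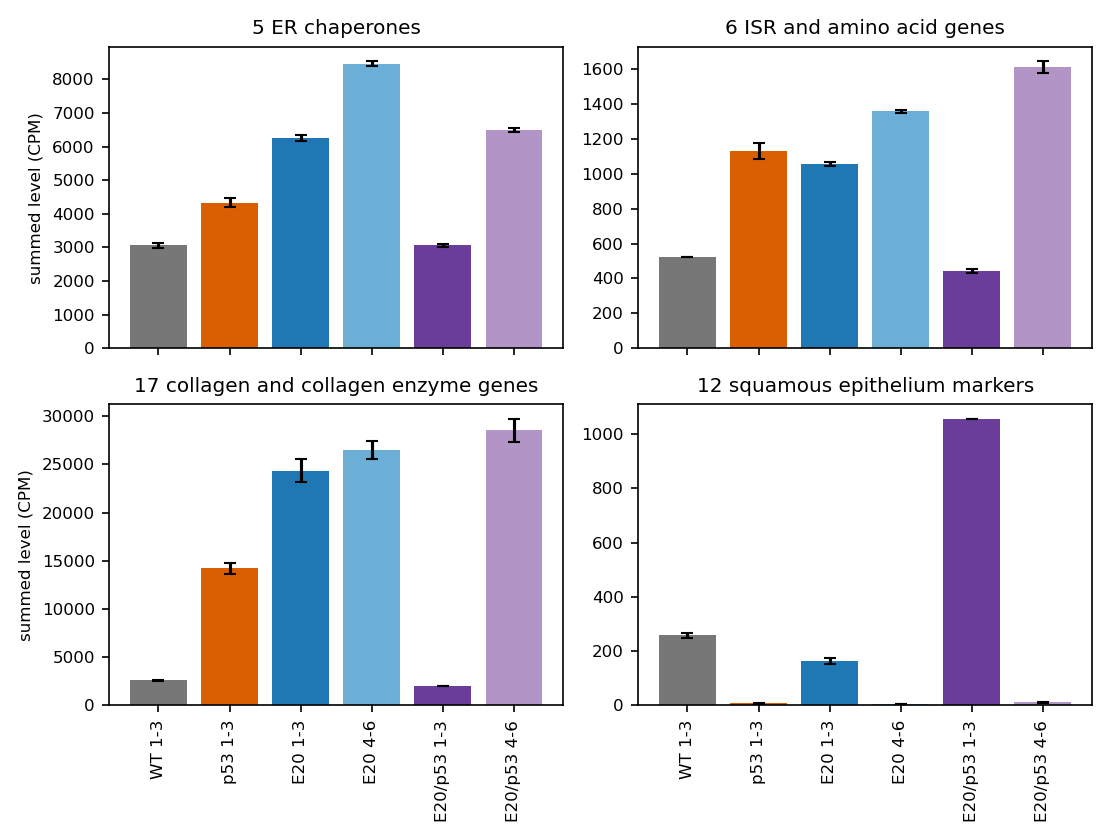
Summed levels in CPM per block of 3 libraries (bars, mean; error bars, SD) for the 5 chaperones, the 6 feedback and amino acid genes, 17 collagen and collagen enzyme genes and 12 squamous epithelium markers. WT and E20/p53 1 to 3 are the lowest bars for the first 3 sums, and E20/p53 1 to 3 is the highest for the squamous markers.

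E20/p53 was compared with E20, and 13 of the 35 genes were lower and 1 was higher in E20/p53. K14-Cre is labelled in E20/p53 alone, so an effect of the added p53 allele and one of Cre cannot be told apart. In the same comparison 19.6% of all tested genes were lower and 23.0% were higher, and the median log2 difference was -0.50 over the 35 genes and 0.05 over all. Lower genes were 2 of 5 chaperones, 4 of 6 partners of BiP, 4 of 5 isomerases, Xbp1 alone of the 6 sensors and factors, 2 of 7 translocon and degradation genes and 0 of 6 feedback and amino acid genes, of which Chac1 alone had an unadjusted limma p under 0.05. In 9 of the 13, every E20/p53 library was below every E20 library, against 11.2% of all tested genes, and 0 of the 35 genes lay wholly above, against 11.3%. The 9 were Hsp90b1, Calr, Pdia6, Manf, Sdf2l1, Sel1l, Pdia3, Dnajc3 and Ppib.

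Hsp90b1 changed most of these, from lowest, median and highest levels of 2049, 2728 and 3380.1 CPM in E20 to 967, 1346 and 1730.1 CPM in E20/p53. Its log2 difference was -1.02 (SE 0.19), with an adjusted p of 5.17e-04 by limma. Calr was at 1496 ± 83.0 CPM (SD, n = 6) in E20 and 881 ± 451 CPM in E20/p53, a log2 difference of -0.94 (SE 0.26) with a limma adjusted p of 0.00892, which was 0.0703 without E20 4 to 6. Pdia6 had the smallest adjusted p, 5.70e-07 by limma, at a log2 difference of -0.87 (SE 0.08). Its levels in E20/p53 1 to 3, 372 to 385 CPM, overlapped with the 364 to 376 CPM of WT. In E20/p53 4 to 6 it was above every WT library, at 415 to 423 CPM. Manf fell by 0.73 and Sdf2l1 fell by 0.71 on the log2 scale, with limma adjusted p of 0.00138 and 0.00179. Xbp1 fell by 0.84 (SE 0.28, limma adjusted p = 0.0218) with overlapping libraries, and the call was lost without E20/p53 library 1, 2 or 3 (adjusted p of 0.0532, 0.0535 and 0.0538), and with only the 2 groups fitted (0.0613). Ern1, the only higher gene, is named because it was alone in its direction, after its value was seen. It was at 14.9, 21.4 and 28.4 CPM in E20 and 23.8, 55.6 and 86.7 CPM in E20/p53 as lowest, median and highest, the groups overlapped, and the log2 difference was 1.22 (SE 0.32) with a limma adjusted p of 0.00658.

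Hspa5, Ddit3, Atf4 and Asns did not pass the test in this comparison. Their log2 differences were -0.55 (SE 0.29), -0.91 (SE 0.37), -0.37 (SE 0.23) and -0.44 (SE 0.33), with limma adjusted p of 0.133, 0.056, 0.209 and 0.296. Ddit3 passed when E20/p53 library 4, 5 or 6 was left out (adjusted p of 0.0214, 0.0224 and 0.0146), with median-of-ratios size factors (0.0479) and with array quality weights (0.0138). Hspa5 passed with array quality weights (limma adjusted p = 0.0459).

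The block of E20/p53 that was kept changed this comparison more than any single library. With E20/p53 4 to 6 as the double mutant, 10 genes were lower and 10 were higher, where 23.8% and 29.2% of all tested genes were lower and higher. Of the 13 lower genes of the full comparison 9 were called again, the same 9 that did not overlap, and Dnajb9 joined them. The 10 higher genes were Trib3, Chac1, Psat1, Phgdh, Ppp1r15a, Atf4, P4hb, Ssr1, Hyou1 and Derl1, and Ern1 was not among them. Atf4 was then higher by 0.26 on the log2 scale, with a limma adjusted p of 0.014. With E20/p53 1 to 3 as the double mutant, 29 genes were lower, where 31.4% of all tested genes were, and Ern1 alone was higher, where 33.7% were, by 2.03. Trib3 was then lower by a log2 difference of -2.27, Ddit3 by -1.95 and Chac1 by -1.88. So the 9 genes were called lower with either E20/p53 block, while Trib3, Chac1, Psat1, Phgdh and Ppp1r15a were called higher with one block and lower with the other. Of the E20 blocks, leaving out 1 to 3 left 13 lower genes (beside 20.7% of all tested genes), of which 10 were the same, and 0 higher (24.1%). Leaving out 4 to 6 left 8 lower genes (17.7%), all among the 13, and 3 higher (3136 of all tested genes), Ern1, Atf6 and Eif2ak3. The calls of Calr (limma adjusted p = 0.0703), Pdia3 (0.0563), Pdia4, Creld2 and Xbp1 were lost there, so of the 9 genes 7 were called with every block left out in turn. When each block was averaged to 1 value, leaving 6 values and 2 residual degrees of freedom, limma called 0 of the 35 genes in any of the 6 comparisons between groups, and 1, 0, 2, 0, 8 and 4 of them had an unadjusted p under 0.05 in E20/p53 against E20, E20/p53 against p53, E20 against p53, p53 against WT, E20 against WT and E20/p53 against WT. Of all tested genes 6.39%, 2.77%, 4.13%, 10.7%, 13.6% and 10.3% had, so outside E20 against WT the counts of the 35 were near or below those shares. In the first of these it called 0 of all tested genes, the 1 gene was Pdia6, and the smallest adjusted p among the 35 was 0.728.

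**Figure D5:**
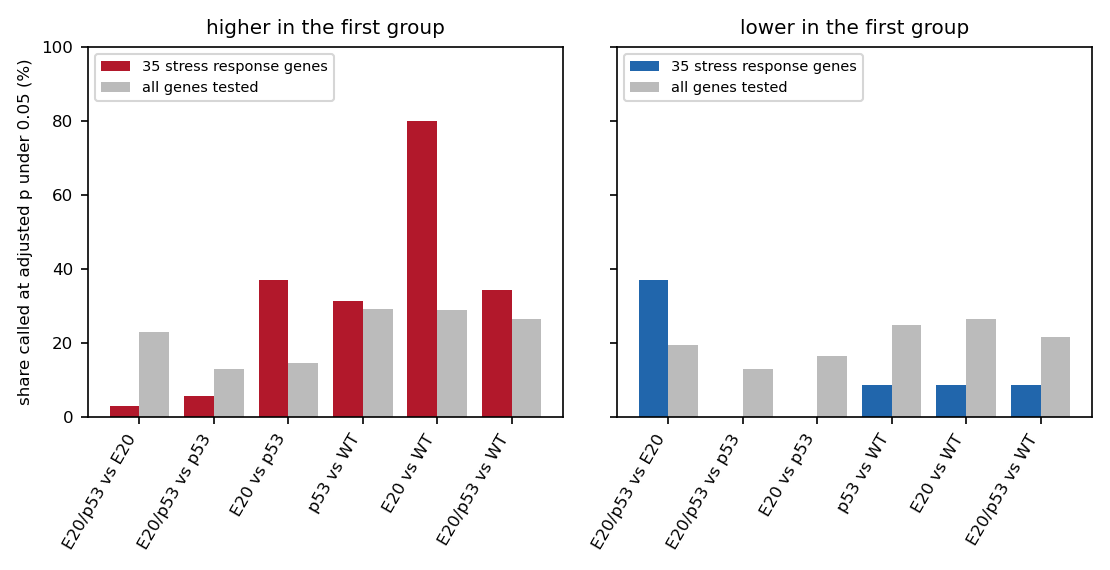
Share of the 35 genes (coloured bars) and of all 15235 tested genes (grey bars) called higher (left) or lower (right) in the first group of each comparison at a limma adjusted p under 0.05, in percent on axes from 0. The E20 against WT bar for higher genes reaches 80.0% beside 29.0%, and the E20/p53 against E20 bar for lower genes reaches 37.1% beside 19.6%.

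E20/p53 was also compared with p53, and 2 of the 35 genes were higher and 0 were lower. Of all tested genes 12.9% were called in each direction, and 0 of the 35 were lower at an unadjusted p under 0.05 by limma. Here too K14-Cre is labelled in E20/p53 alone, so the added PIK3CA allele and Cre cannot be told apart. The median log2 difference was 0.07 over the 35 genes and 0.02 over all. Eif2ak3 rose from 29.6, 28.1 and 27.3 CPM in p53 to a lowest, median and highest level of 40.5, 46.2 and 48.5 CPM in E20/p53, with no overlap, a log2 difference of 0.68 (SE 0.15) and a limma adjusted p of 0.00327. Sdf2l1 rose from 14.2 ± 0.495 CPM (SD, n = 3) to 25.2 ± 6.94 CPM (n = 6), also with no overlap, by 0.78 (SE 0.19) (limma adjusted p = 0.0074). In all, 4 genes were above every p53 library, against 15.9% of all tested genes, and 0 were below, against 16.6%. Hspa5 differed by 0.29, Xbp1 by -0.10, Atf4 by -0.30, Ddit3 by -0.13 and Asns by 0.14 on the log2 scale, and none of these 5 passed (limma adjusted p of 0.567, 0.849, 0.446, 0.855 and 0.819).

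That near balance came from blocks on either side of p53. With E20/p53 4 to 6 alone, 25 of the 35 genes were higher and 1, Dnajb9, was lower, where 17.9% and 16.2% of all tested genes were. Trib3 was then higher by 2.29, Chac1 by 1.31, Ddit3 by 0.90 and Xbp1 by 0.68 on the log2 scale. With E20/p53 1 to 3 alone, 22 genes were lower and 6 were higher, where 32.6% and 31.3% of all tested genes were. Psat1 was then lower by a log2 difference of -1.84 and Ppp1r15a by -1.64, and the 6 higher genes were Ern1, Dnajb9, Sel1l, Ppib, Eif2ak3 and Sdf2l1. Eif2ak3 and Sdf2l1 were called higher with either block. Leaving out E20/p53 library 6 alone added 1 lower gene, where 15.3% of all tested genes were lower.

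The groups labelled with a single allele, whose Cre is not stated, were compared in E20 against p53. Of the 35 genes 13 were higher in E20 and 0 were lower, also at an unadjusted p under 0.05 by limma. Of all tested genes 14.5% were higher and 16.4% were lower, and the median log2 difference was 0.59 over the 35 genes and -0.01 over all. With array quality weights 25 were higher and 3 lower, beside 3803 and 4125 of the 15235 tested genes (27.1% lower), and with only the 2 groups fitted 22 and 4, beside 3086 and 3347 of them (22.0% lower). The higher genes were 4 of 5 isomerases (all but P4hb), 3 of 6 partners of BiP (Sdf2l1, Manf and Dnajc3), 3 of 7 translocon and degradation genes (Herpud1, Edem1 and Sel1l), Hsp90b1, Eif2ak3 and Trib3. In 25 genes every E20 library was above every p53 library, against 21.7% of all tested genes, and 4 lay below, against 23.8%. Sdf2l1 went from 14.3, 14.7 and 13.7 CPM in p53 to 33.4, 40.3 and 47.1 CPM in E20 as lowest, median and highest, a log2 difference of 1.48 (SE 0.19) with a limma adjusted p of 2.45e-05. Pdia4 rose by 1.19 (SE 0.26), Herpud1 by 1.06 (SE 0.22) and Hsp90b1 by 0.96 (SE 0.24), with limma adjusted p of 0.00222, 0.00149 and 0.00536. Trib3 had the largest difference, 1.70 (SE 0.63), but its limma adjusted p of 0.0496 was lost when any 1 of the 9 libraries was left out. Without E20 1 to 3, 13 genes were higher and 1, Derl3, was lower, beside 19.2% and 21.4% of all tested genes, Trib3 being lost and Atf6 added. Without E20 4 to 6, 9 were higher and 0 lower, beside 13.7% and 15.3%, and Edem1, Hsp90b1, Pdia3 and Trib3 were lost. Hspa5 (0.84), Xbp1 (0.74), Ddit3 (0.78) and Asns (0.59) were above p53 in all E20 libraries and did not pass (limma adjusted p of 0.0808, 0.108, 0.205 and 0.296), and Atf4 differed by 0.07 with overlap (0.887). Hspa5, Xbp1 and Ddit3 passed with only the 2 groups fitted (limma adjusted p of 0.00259, 7.17e-06 and 1.36e-04), and Hspa5, Xbp1, Ddit3 and Asns passed with array quality weights (7.16e-04, 9.76e-04, 0.00591 and 0.0243). The summed collagen genes were 13589 to 14546 CPM in p53 and 23283 to 27270.5 CPM in E20. The muscle markers summed to 2112 to 2264 CPM in p53 and 667 to 747 CPM in E20. Gene by gene, 2 of 17 collagen genes were called higher in E20 and 0 lower. Of 9 tested fibroblast markers 1 was higher and 3 were lower, and of 10 muscle markers 0 and 8. Their part in these differences was not tested.

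Against the wild type esophagus, E20 tongue had the highest count of the 6 comparisons, with 28 of the 35 genes higher (80.0%) and 3 lower, beside 29.0% and 26.4% of all tested genes. All 5 chaperones, all 5 isomerases, 5 of 6 partners of BiP, 6 of 7 translocon and degradation genes, 4 of 6 feedback and amino acid genes and 3 of 6 sensors and factors were higher, and the median log2 difference was 1.03, against 0.04 over all tested genes. In 29 genes the groups did not overlap upward and in 3 downward, against 33.1% and 30.6% of all tested genes. Sdf2l1 rose by 2.71 (SE 0.19), Manf by 2.10 (SE 0.19) and Chac1 by 2.09 (SE 0.46) on the log2 scale, with limma adjusted p of 6.35e-09, 1.39e-07 and 0.00117. Psat1 rose by 1.67 (SE 0.45) and Hspa5 by 1.25 (SE 0.35), with limma adjusted p of 0.00477 and 0.00629. Of the transcription factors, Xbp1 rose by 1.20 (SE 0.34), Ddit3 by 1.41 (SE 0.45) and Atf4 by 1.23 (SE 0.28), with limma adjusted p of 0.00674, 0.0142 and 0.00144. Trib3 rose by 1.81 (SE 0.63) with a limma adjusted p of 0.0219, a call lost without WT library 1, 2 or 3 (adjusted p of 0.0545, 0.0551 and 0.0668). Ern1 fell from 122, 139 and 120.5 CPM to 14.9, 21.4 and 28.4 CPM (lowest, median and highest), a log2 difference of -2.62 (SE 0.40) with a limma adjusted p of 3.61e-05. Dnajb9 fell by 0.54 (SE 0.21) (limma adjusted p = 0.0411), a call lost without any 1 of the 9 libraries, and Derl3, the other lower gene, was at 1.14 CPM at most. Asns, at 0.85, did not pass (limma adjusted p = 0.0866). Without E20 1 to 3 the counts were 28 higher, of which 25 were the same genes, and 2 lower, beside 28.3% and 25.9% of all tested genes, and of the named genes Ddit3 and Dnajb9 lost their calls. Without E20 4 to 6 they were 21, all among the 28, and 3, beside 29.5% and 26.8%, and Hspa5, Trib3 and Dnajb9 lost theirs. The summed collagen genes were 2563 to 2687 CPM in WT and 23283 to 27270.5 CPM in E20, with 15 of 17 higher and 0 lower. Of 9 tested fibroblast markers 6 were higher and 1 was lower, and Col1a1, Col1a2 and Col3a1 are in both lists. The part of these genes in the result was not tested. Over block means 8 of the 35 genes had an unadjusted p under 0.05, beside 13.6% of all tested genes, with 0 called and a smallest adjusted p of 0.166.

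In p53 against WT, 11 of the 35 genes were higher and 3 were lower, beside 29.3% and 24.9% of all tested genes. With only the 2 groups fitted the counts were 26 and 7, beside 42.2% and 38.6% of all tested genes, and with array quality weights 24 and 5, beside 41.8% and 38.1%. The summed collagen genes were 2563 to 2687 CPM in WT and 13589 to 14546 CPM in p53 with 13 of 17 higher, the muscle markers 10.9 to 12.6 and 2112 to 2264 CPM with 10 of 10 higher, and the squamous markers 249.6 to 266 and 6.37 to 8.03 CPM with 2 of 10 tested lower. Their part in the result was not tested. The median log2 difference was 0.45, against 0.04 over all tested genes. Psat1 rose from 157, 155 and 158 CPM to 587, 621 and 570.0 CPM, by 1.92 (SE 0.52) with a limma adjusted p of 0.00546. Manf rose by 1.30 (SE 0.22), Sdf2l1 by 1.23 (SE 0.22), Atf4 by 1.16 (SE 0.32) and Ssr1 by 1.15 (SE 0.20), with limma adjusted p of 1.33e-04, 2.24e-04, 0.00648 and 1.99e-04. Ern1 fell by 1.95 (SE 0.46), Dnajb9 fell by 0.75 (SE 0.25) and Eif2ak3 fell by 0.66 (SE 0.17), with limma adjusted p of 0.00204, 0.0166 and 0.00409, and the call of Dnajb9 was lost without p53 library 1 or 2 (adjusted p of 0.0541 and 0.0583). The main fit pools the spread of a gene over all 4 groups, so it also holds the gaps between the blocks of E20 and of E20/p53. Hspa5 (0.42), Xbp1 (0.45), Ddit3 (0.63) and Asns (0.26) did not pass, although no p53 library overlapped with WT (limma adjusted p of 0.401, 0.341, 0.322 and 0.658). With only the 2 groups fitted all 4 passed at the same difference (limma adjusted p of 5.71e-06, 3.50e-06, 3.67e-06 and 1.56e-04), and Hspa5, Xbp1 and Ddit3 also passed with array quality weights (0.0119, 0.00467 and 0.00359). Over the 35 genes 27 lay wholly above and 6 wholly below WT, against 42.8% and 39.0% of all tested genes. By quantile normalization the counts were 10 higher and 5 lower, beside 26.1% and 29.5% of all tested genes, which moved the share of higher calls from 78.6% to 66.7%.

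For E20/p53 against WT the counts were 12 higher and 3 lower, beside 26.5% and 21.6% of all tested genes, with a median log2 difference of 0.50 against 0.05. In 11 genes the libraries lay wholly above and in 4 wholly below, against 26.7% and 23.8% of all tested genes. Sdf2l1 rose by 2.01 (SE 0.19), Manf by 1.36 (SE 0.19), Ssr1 by 1.29 (SE 0.18), Dnajc3 by 1.08 (SE 0.16) and Dnajb11 by 1.03 (SE 0.18), with limma adjusted p of 2.86e-07, 2.01e-05, 1.60e-05, 2.85e-05 and 2.10e-04. These 5 genes were above WT in both blocks. Ern1 fell by 1.41 (SE 0.40) and Dnajb9 fell by 0.95 (SE 0.21) (limma adjusted p of 0.00782 and 0.00159), and the remaining lower gene was Derl3. Atf4 rose by 0.86 (SE 0.28) with a limma adjusted p of 0.0181, which was 0.053, 0.0543 and 0.0503 without WT library 1, 2 or 3, and 0.091 with only the 2 groups fitted. Hspa5 at 0.70 (SE 0.35) did not pass (limma adjusted p = 0.108), and passed without E20/p53 library 1, 2 or 3 (0.0438, 0.0484 and 0.0492) and with array quality weights (0.0396). Xbp1 (0.35), Ddit3 (0.50) and Asns (0.41) did not pass either (limma adjusted p of 0.41, 0.382 and 0.429). With E20/p53 4 to 6 alone 27 genes were higher and 3 lower, beside 37.0% and 30.6% of all tested genes, and the summed collagen genes of that block were 27821 to 29951 CPM against 2563 to 2687 CPM in WT, whose part in the result was not tested. With 1 to 3 alone 10 were higher and 10 were lower, beside 31.4% and 26.9%, and Xbp1 was then lower by a log2 difference of -0.42 and Ddit3 by -0.54.

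Wider lists of the same pathways, none of which holds one of the 35 genes, were read in E20/p53 against E20 beside the background of 23.0% higher and 19.6% lower. Of 23 further folding genes 1 was higher and 6 were lower, and of 17 further degradation genes 1 and 5. Of 23 genes of the translocon, signal peptidase and glycosylation 4 were higher and 5 were lower, of 18 further sensors and kinases 3 and 7, and of 40 further targets of ATF4 and of the integrated stress response 5 and 8. Cytosolic heat shock genes, which respond to misfolding outside the ER, were higher in 6 and lower in 3 of 17. Among folding genes, Dnajc10 (ERdj5), a reductase, fell by 0.47 (SE 0.06) and Sil1, an exchange factor of BiP, fell by 0.51 (SE 0.13), with limma adjusted p of 7.28e-06 and 0.00511. Spcs3, a signal peptidase subunit, rose by 0.61 (SE 0.05) and Srp54a, a subunit of the signal recognition particle, by 0.34 (SE 0.07) (2.43e-07 and 0.00103), while in degradation Selenok fell by 0.60 (SE 0.06) and Faf2 rose by 0.40 (SE 0.04) (1.14e-06 and 1.26e-06). The eIF2α kinase of viral RNA, Eif2ak2, fell from 168 ± 65.1 to 77.4 ± 3.70 CPM (SD, n = 6), by -1.02 (SE 0.20), and the cell death gene Bbc3 fell by 0.70 (SE 0.15) (6.28e-04 and 0.00122).

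Among the further targets, Atf3, a stress-induced transcription factor, rose by 2.40 (SE 0.27) with a limma adjusted p of 3.15e-06, and the cationic amino acid transporter Slc7a1 by 0.57 (SE 0.08) (3.44e-05). Atf3 was at 2.77 and 1.24 CPM in the E20 blocks and at 7.80 and 12.5 CPM in the E20/p53 blocks, so both blocks of the double mutant were above both of E20, which Ddit3 and Chac1 were not. Of the cytosolic genes Hsph1 rose by 0.56 (SE 0.07) and Bag3 fell by 0.53 (SE 0.08) (5.54e-06 and 6.32e-05). Of 17 genes for collagens and collagen enzymes 0 were higher and 9 were lower, with Col6a2 at -1.42 (SE 0.37) and Plod2, a lysyl hydroxylase, at -0.64 (SE 0.17) (0.00542 and 0.00594). Between the blocks of E20/p53, 36 of the 40 further ATF4 targets were above in libraries 4 to 6 and 2 were below, with a median ratio of 2.58. The same counts were 17 and 2 of 23 for folding, 19 and 1 of 23 for the translocon list, 9 and 5 of 17 for degradation, 4 and 6 of 18 for sensors, 8 and 7 of 17 for cytosolic heat shock and 16 and 1 of 17 for collagen genes, all beside 41.4% and 38.9% of all tested genes. In E20 against WT, beside 29.0% higher and 26.4% lower of all tested genes, the higher and lower counts were 16 and 0 of 23 folding genes, 17 and 1 of 23 translocon genes, 10 and 2 of 17 degradation genes, 8 and 6 of 18 sensor genes, 22 and 2 of 40 ATF4 target genes and 2 and 4 of 17 cytosolic heat shock genes. In E20 against p53, beside 14.5% and 16.4%, they were 8 and 0 of 23 folding genes, 2 and 1 of 23 translocon genes, 5 and 0 of 17 degradation genes, 4 and 1 of 18 sensor genes, 6 and 2 of 40 ATF4 target genes and 2 and 5 of 17 cytosolic heat shock genes. In E20/p53 against p53, beside 12.9% in each direction, they were 3 and 0 of 23 folding genes, 3 and 0 of 23 translocon genes, 3 and 0 of 17 degradation genes, 2 and 2 of 18 sensor genes, 7 and 2 of 40 ATF4 target genes and 0 and 3 of 17 cytosolic heat shock genes. In p53 against WT, beside 29.3% and 24.9%, they were 9 and 1 of 23 folding genes, 9 and 1 of 23 translocon genes, 5 and 6 of 17 degradation genes, 4 and 7 of 18 sensor genes, 12 and 3 of 40 ATF4 target genes and 5 and 2 of 17 cytosolic heat shock genes, and in E20/p53 against WT, beside 26.5% and 21.6%, 10 and 1 of 23 folding genes, 11 and 2 of 23 translocon genes, 6 and 3 of 17 degradation genes, 4 and 7 of 18 sensor genes, 14 and 2 of 40 ATF4 target genes and 3 and 3 of 17 cytosolic heat shock genes.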

How the data were processed

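RNA was measured in 18 libraries made with a stranded poly(A) kit. Per the submitters' processing notes the authors used bcl2fastq 1.8.4, Trimmomatic and featureCounts on mm10, while aligner, annotation and strand setting are not given in the sources consulted. The deposited values are log2 units: reads plus 1 over a scaled library total, since 100% returned whole reads within 0.001. Those totals lay between 0.939 and 1.12 of the summed reads. The CPM levels given here use them, while the CPM of the filter use the plain sums of reads. Genes with at least 0.635 CPM (10 reads at the median depth) in 3 libraries and 15 reads in all were tested, with limma 3.58.1 in R 4.3.3 on the deposited log2 values, 1 mean per group, a mean-variance trend, 14 residual degrees of freedom and Benjamini-Hochberg adjustment over 15235 genes, called at an adjusted p under 0.05. The procedure was tested on simulated data with independent libraries and no blocks of 3. That test therefore does not cover groups whose libraries fall into blocks. Replicate numbers were checked as pairs (21 same-number pairs, r from -0.054 to 0.074) and do not pair the libraries. Comparisons share groups, so their calls are not independent.

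The 35 genes and the wider lists were chosen with earlier results of these data known. Named in each comparison were up to 5 higher and 5 lower genes by log2 difference, among those called, at 5 CPM or more in the higher group and with no overlap between libraries, besides Hspa5, Xbp1, Atf4, Ddit3 and Asns. Up to 2 genes per wider list were named by adjusted p in E20/p53 against E20. Alternatives were other totals, quantile normalization, other filters, array quality weights, only the 2 groups compared, a replicate block, a 2-fold minimum, block means, and each library and block left out.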

Additional observations from a re-analysis of the deposited data

Results flagged for a closer look

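In 70 tests of single libraries, 1 for each of the 35 genes in each of the groups of 6 libraries, 2 libraries stood apart from the others of their group, and chance marks about 1 in 20. Dnajc3 in E20 library 2 was the highest of the 6 at 219.5 CPM, with a gap to the next library of 0.696 of the range of the group, whose lowest library was at 203 CPM. Atf6 in E20/p53 library 6 was the lowest at 91.9 CPM, with a gap of 0.661 of the range and a highest library at 99.8 CPM. Genes that divide these groups into blocks of 3 cannot be marked in this way.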

How the results depend on the processing

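Over block means the counts of called genes were 0 in all 6 comparisons, with 2 residual degrees of freedom. A 2-fold minimum left 0 except in E20 against WT (3 higher, 1 lower) and E20/p53 against WT (1 higher). Of all tested genes 6.64% were then higher and 5.70% lower in E20 against WT, and 4.59% higher in E20/p53 against WT. Plain sums of reads or quantile normalization gave 2 higher genes in E20/p53 against E20, beside 29.6% and 25.2% of all tested genes. Quantile normalization gave 5 lower in p53 against WT, beside 29.5%. With array quality weights, whose fit did not converge fully, 3 genes were lower in E20/p53 against p53 (beside 3078 of all tested genes), 25 higher and 3 lower in E20 against p53, and 24 higher and 5 lower in p53 against WT. With only the 2 groups compared, 22 were higher and 4 lower in E20 against p53, and 26 and 7 in p53 against WT. The shares of all tested genes rose too, and stand with these counts above.

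Without E20 1 to 3, 0 genes were higher in E20/p53 against E20 and 1 lower in E20 against p53, and without E20 4 to 6, 3 were higher and 8 lower in E20/p53 against E20. Without E20/p53 1 to 3 the higher counts were 10 against E20, 25 against p53 and 27 against WT, with 1 lower against p53. Without E20/p53 4 to 6 the lower counts were 29, 22 and 10, with 6 higher against p53. Leaving out single libraries gave, as higher and then lower counts, 1 to 1 and 11 to 17 in E20/p53 against E20, 2 to 3 and 0 to 1 against p53, 8 to 16 and 2 to 3 against WT, 10 to 12 and 0 to 0 in E20 against p53, 25 to 28 and 2 to 2 in E20 against WT, and 10 to 10 and 2 to 3 in p53 against WT.

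Log2 differences that changed sign were, in E20/p53 against E20 without E20/p53 1 to 3, 0.21 for Hspa5, 0.26 for Atf4, 0.12 for Ddit3 and 0.38 for Asns, and 0.0072 for Asns without E20 4 to 6. In E20/p53 against p53 they were 0.68 for Xbp1, 0.32 for Atf4 and 0.90 for Ddit3 without E20/p53 1 to 3, and -0.47 for Hspa5 and -0.68 for Asns without 4 to 6. Leaving out single libraries there turned Xbp1 (range -0.27 to 0.069), Ddit3 (-0.36 to 0.085) and Asns (-0.027 to 0.31). In E20 against p53 without E20 4 to 6 Atf4 was at -0.076. In E20/p53 against WT without E20/p53 4 to 6 the values were -0.053 for Hspa5, -0.42 for Xbp1, -0.54 for Ddit3 and -0.42 for Asns.

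The replicate number as a block brought Hspa5 (limma adjusted p = 0.015), Ddit3 (0.047) and Asns (0.00956) past the threshold in E20/p53 against E20. It made 6 genes lower in E20/p53 against p53, beside 20.7% of all tested genes, and turned Hspa5 (-0.22) and Asns (-0.49) there. It also turned Atf4 (-0.32) and Asns (-0.049) in E20 against p53, and Xbp1 (-0.024) and Asns (-0.23) in E20/p53 against WT. With such a block, libraries 4 to 6 of the groups of 6 have no partner in p53 or WT, and the numbers do not pair the libraries. The cause of the other changes was not tested. Of 1439 alternatives for 63 named gene and comparison pairs, 1235 kept direction and side of the threshold. Plain sums shifted the median of all genes by 0.11 on the log2 scale in E20/p53 against E20, by -0.14 in p53 against WT and by -0.17 in E20 against WT. Derl3 and Atf3 are limited by depth.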
